A study of Mus musculus with 12 samples.

Results

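Ribosome-protected mRNA fragments (footprints) were compared between mice given AZD-8055, which inhibits the kinase mTOR by competing with ATP, and control mice. The comparison used 4 ribosome profiling libraries of the 12 libraries in the series, chosen by assay and treatment label alone. Mice A and B were controls, labelled untreated, which received the Captisol vehicle by oral gavage according to the study's methods. Mice C and D received a single oral dose of AZD-8055 at 100 mg/kg, and all 4 mice were killed 1 h after gavage. All 4 carried Camk2a-cre and the RiboTag allele, so that ribosomal protein Rpl22 bore an HA tag in Camk2a-expressing excitatory neurons. The mice were adults of 3 months, and the methods name the right frontal lobe as the tissue collected. The footprints came from the whole tissue lysate and not from an HA pull-down, so they represent every cell type in the sample. Each group held 2 mice, and the p-values below rest on the spread between those few animals.

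mTOR is a kinase that couples nutrient and growth factor signals to protein synthesis. It phosphorylates the 4E-BP proteins, which otherwise hold the cap-binding factor eIF4E away from the initiation complex, and the S6 kinases, which phosphorylate ribosomal protein Rps6. The mRNAs that depend most on mTOR in cultured cells begin with a terminal oligopyrimidine (TOP) tract, a C at the cap followed by further pyrimidines. They encode the ribosomal proteins, the elongation factors and other parts of the translation machinery. A footprint count reports how many ribosomes were found on a coding sequence, so it follows both the amount of an mRNA and the number of ribosomes on each copy. No RNA-Seq value entered the comparison, and changes in mRNA amount and in translation cannot be told apart here. Nor can fewer cells of a type be told apart from fewer footprints per cell in whole tissue. Counts were scaled within each library, so a change is relative to all other footprints, and total protein synthesis was not measured.

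The libraries held between 3503873 (mouse C) and 9259938 (mouse A) footprints in coding sequences (CDS), with 4551357 in mouse B and 4759336 in mouse D. Neurons dominated the marker genes: the synaptic protein gene Snap25 stood at 4349, 4172, 4716 and 4278 CPM (CPM, footprint counts scaled to the same effective library size) in mice A, B, C and D. Globin genes were listed at 0 in every library, as was the glycolytic gene Eno1. Other blood genes had footprints in mice A, B, C and D: Slc4a1 had 15, 28, 15 and 32, and Alas2 had 36, 8, 11 and 14. The globin values therefore do not show that blood was absent. Markers of some brain regions differed between the mice, and the part of the dissection in this was not tested. Ttr, the transthyretin gene and a marker of the choroid plexus, stood at 24.5, 1163, 92.8 and 47.9 CPM, so mouse B was far above the other 3 mice. Avp, which encodes the hypothalamic hormone vasopressin, had 569, 359, 11 and 283 footprints, and Oxt, the oxytocin gene, had 253, 154, 10 and 162, so mouse C was low in both. Striatal markers were also present in all mice (Penk, 879, 882, 947 and 1030 CPM), although the methods name the frontal lobe. A gene was tested if its mean over the 4 libraries reached 37 footprints. Across the 10695 such genes, the log2 ratio of mouse B to mouse A had an SD of 0.25, and that of mouse D to mouse C an SD of 0.29.

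Inhibition of mTOR for 1 h was followed mainly by losses. Of the 10695 genes tested, 103 carried fewer footprints after AZD-8055 (0.963%) and 5 carried more (0.0468%), by edgeR's quasi-likelihood test at a Benjamini-Hochberg adjusted p under 0.05. At an unadjusted p under 0.05, 717 genes were lower and 654 higher, and the median log2 change of all tested genes was 0.00. The change was below 0 for 5301 of the tested genes. These counts are the background for the list counts below. In CPM, both treated mice lay below both vehicle mice for 22.2% of all tested genes and above them for 21.8%. The groups did not overlap for any of the 108 genes called. With 2 mice per group a call largely implies this, so it is no separate evidence, here or in the passages on called genes below. The losses fell largely on the translation machinery: 73 of the 103 genes encoded cytosolic ribosomal proteins, and a further 16 encoded a ribosomal protein paralog, translation factors or proteins of other mRNAs known to begin with a TOP tract. The other 14 genes were Pmch, Nob1, Pfdn5, Rabggtb, Cct4, Arid4b, Sec63, Sod1, Fxr1, Cops2, Hspa5, Dnajb4, Pdia4 and Canx. The fall exceeded 2-fold for 35 genes, 30 of them ribosomal protein genes. Whether counting used strand is not stated, so genes that overlap another gene are less certain, among them Eif4a2 (Rfc4), Eif3m (Ccdc73), Hspa5 (Rabepk), Dnajb4 (Fubp1), Fxr1 (Dnajc19), Pmch (Parpbp) and Haghl (Ciao3).

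**Figure D1:**
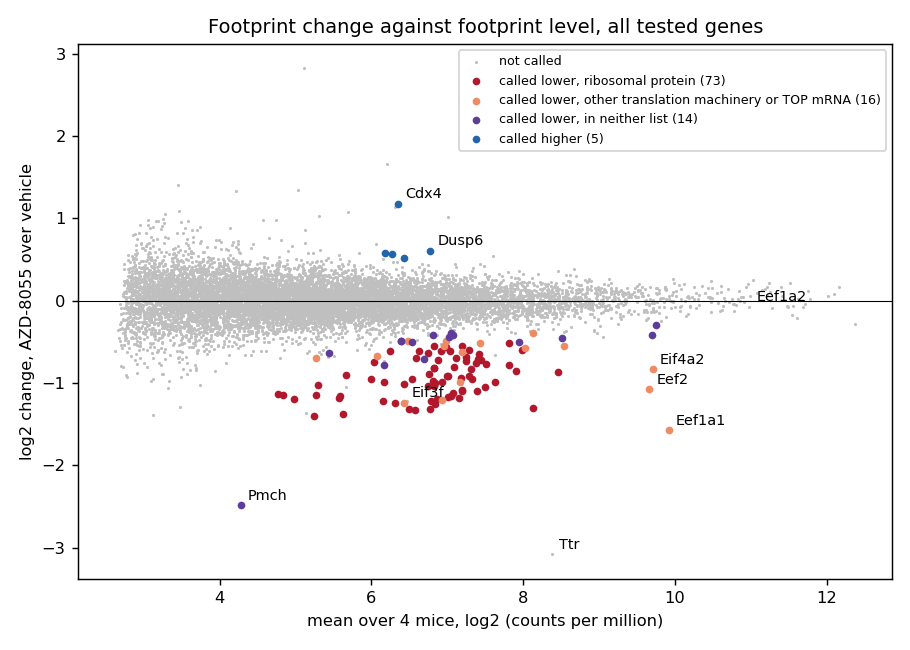
Log2 change in footprints (AZD-8055 over vehicle) against the mean footprint level over the 4 mice in log2 CPM, with 1 point for each of the 10695 tested genes and colours for the genes called. The called ribosomal protein genes (73) and other machinery genes (16) lie below 0, while Eef1a2 stands near 0 and only 5 genes are called higher.

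The number of genes called depended on single mice. Without vehicle mouse A, 65 genes were lower and 2 higher, and without vehicle mouse B the counts were 75 and 7. Without treated mouse C they were 481 and 353, and without mouse D they were 187 and 74. With 1 mouse left in a group, that mouse was assumed to vary like the others. A call in such a fit cannot separate treatment from the level of that mouse. In every one of these 4 fits, 58 of the 103 genes were called lower, and all 58 were ribosomal protein (52), translation factor or TOP mRNA genes. None of the 14 genes outside those lists was called in all 4 fits, and of the 5 genes with more footprints only Cdx4 was.

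The cytosolic ribosomal proteins, the structural proteins of the cytoplasmic ribosome, fell as a group. Of the 78 such genes tested, 73 were called lower (93.6%, against 0.963% of all genes), none was called higher, and the median log2 change was -0.92. Those not called included Rps26 (-0.69), Rpl41 (-0.61), Rplp2 (-0.42) and Rpl19 (-0.40), with edgeR adjusted p between 0.051 and 0.20. Both treated mice lay below both vehicle mice for all 78 genes, where 22.2% of all tested genes did so. Together these genes took 1.28% and 1.24% of all CDS footprints in mice A and B, and 0.690% and 0.708% in mice C and D. The treated mean of their share, 0.699% ± 0.013 (SD, n = 2), was 0.555 times the vehicle mean of 1.26% ± 0.022 (SD, n = 2). The treated mice were alike, with a median log2 ratio to the vehicle mean of -0.91 in mouse C and -0.90 in mouse D. Leaving out single mice gave 52 to 78 called genes. Many ribosomal protein genes have processed pseudogenes of near-identical sequence, so single values are less certain than the group.

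**Figure D2:**
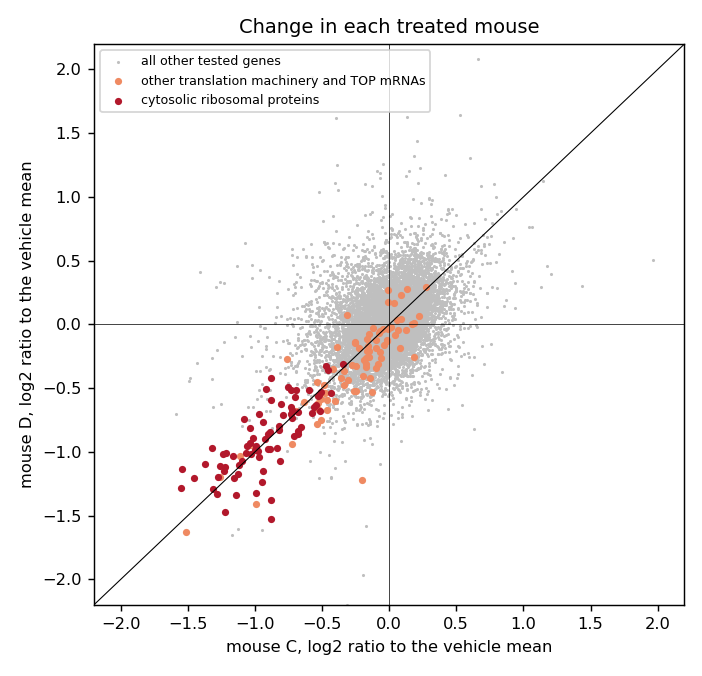
Log2 ratio of each tested gene to the mean of the vehicle mice in treated mouse C (horizontal) and treated mouse D (vertical), with ribosomal protein genes in red and other machinery and TOP mRNA genes in orange (7 genes lie outside the plotted range). Both axes share the vehicle mice, and the red points lie near the diagonal around the medians of -0.91 and -0.90.

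Both subunits were reduced. The 46 large subunit genes had a median log2 change of -0.93, with 42 called lower, and the 32 small subunit genes had a median of -0.92, with 31 called lower. Their shares of CDS footprints were 0.801%, 0.781%, 0.439% and 0.451% for the large subunit and 0.474%, 0.462%, 0.251% and 0.257% for the small subunit in mice A, B, C and D. The treated values were 0.563 and 0.542 times the vehicle values.

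Within the group the log2 changes covered a wide range beside their standard errors. Rps12, a small subunit protein, had the lowest value: 51.6 and 59.4 CPM in the vehicle mice, 18.6 and 22.5 in the treated mice (log2 change -1.41 ± 0.14 SE, edgeR adjusted p = 0.00044). Rps20 stood at 74.4 and 67.5 against 30.1 and 25.2 (log2 change -1.38 ± 0.13). Rpl30 stood at 144 and 128 against 49.3 and 58.6 (log2 change -1.33 ± 0.11). In each of these 3 genes both treated mice lay far below both vehicle mice. Rpl3, which helps to shape the peptidyl transferase centre, stood at 400 and 399 CPM in mice A and B and at 161 and 163 in mice C and D (log2 change -1.30 ± 0.07, edgeR adjusted p = 2.7e-05). Rps2 (-1.32), Rpl13a (-1.31), Rps24 (-1.25), Rps18 (-1.24), Rpl13 (-1.22), Rpl32 (-1.22) and Rpl37 (-1.20) were also among the 15 largest falls of all genes. Rpl4 took the most footprints of the ribosomal proteins, 469 and 440 CPM in the vehicle mice and 245 and 253 in the treated mice (log2 change -0.87 ± 0.07).

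Rps6, the S6 kinase substrate, fell from 314 and 294 to 213 and 190 CPM (log2 change -0.60 ± 0.08 SE, edgeR adjusted p = 0.0042), and it was not called without mouse A. Rpl22, the protein that carries the tag in these mice, fell from 41.1 and 37.5 to 15.5 and 19.8 (log2 change -1.15 ± 0.16, edgeR adjusted p = 0.0040), also not called without mouse A. In all, 30 ribosomal protein genes fell by more than 2-fold, 44 had log2 changes between -1 and -0.5, and 4 lay above -0.5. Of the 4 tested paralogs, close relatives of ribosomal proteins encoded by separate genes, only Rpl36al was called (log2 change -0.49 ± 0.09, and in no fit without mouse A or mouse B). Rpl22l1, the paralog of Rpl22, had a log2 change of -0.65 ± 0.13 (edgeR adjusted p = 0.053).

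The sequence at the start of these mRNAs was read from RefSeq for build GRCm38.p6, which gave a start for 8028 of the 10695 tested genes and for 56 of the 78 ribosomal protein genes. A TOP-like start was taken as a C at the annotated start followed by at least 4 bases that are each C or T, on the transcribed strand. It was present at 2.51% of all 32851 annotated starts. A gene was counted as having it if any of its annotated starts did. The following starts are shown because the genes fell after AZD-8055 and hold such a start, with 5 bases before it and 25 bases from it on, and with the pyrimidine run in capitals.
Eif3f (chr7:108934410-108934439, plus strand): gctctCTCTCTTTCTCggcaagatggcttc
Rps18 (chr17:33955641-33955670, minus strand): ccgctCTCTCTTCCacaggaggcctacacg
Rps15a (chr7:118116123-118116152, minus strand): gccatCTTCCCTCgccggtgagtgagtgtt
Rps10 (chr17:27635220-27635249, minus strand): cgcccCTTCCTTTCCagcctccgcctcgga
Rpl35 (chr2:39005107-39005136, minus strand): ctttcCTCTTTCTCTCgaaccaggctgctt
Fau (chr19:6057942-6057971, plus strand): cacttCTTCCTCTTTCTTgactccatcttc
Rps6 (chr4:86857343-86857372, minus strand): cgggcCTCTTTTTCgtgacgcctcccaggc
Rpl15 (chr14:18270962-18270991, minus strand): gccttCTTCCTTTCCTCTggcggcagccat

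Annotated starts can lie some bases from the true cap. In 4 more genes with large falls, the longest pyrimidine run of the window (capitals) spans the annotated start or lies downstream of it. The start is again the base after the fifth. The run of Eef2, shown last, begins with a T and is the farthest from the start.
Eef1a1 (chr9:78481700-78481729, minus strand): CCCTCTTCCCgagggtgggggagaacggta
Rps12 (chr10:23787185-23787214, minus strand): cggccaccgccggCCTTTTCCCCTgccgcc
Rpl13a (chr7:45128721-45128750, minus strand): gacaagaCCTCCTCCTTTCCCaggcggctg
Eef2 (chr10:81176626-81176655, plus strand): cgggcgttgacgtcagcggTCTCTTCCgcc

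Most genes with a TOP-like start were not called. Of 253 tested genes with such a start, 13 were called lower (5.14%), against 64 of 7775 genes without it (0.823%), and the median log2 change was 0.00 in both. The 13 were 12 ribosomal protein genes and Eif3f. Among the 240 genes with such a start that encode no ribosomal protein, Eif3f alone was called and the median log2 change was 0.01. Those not called with the most footprints included Pld3, Ldhb and Spock2, shown for contrast.
Pld3 (chr7:27553194-27553223, minus strand): tgcacCTTCCaccagccgctctagccctcc
Ldhb (chr6:142507933-142507962, minus strand): tcctcCTCCTCCTTCTTgtagagccggagt
Spock2 (chr10:60106252-60106281, plus strand): ctctcCCTCTCCgcgtccagcgctgggctt

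Pld3, a lysosomal protein gene, had a log2 change of 0.18, Ldhb, a lactate dehydrogenase gene, 0.06, and Spock2, a matrix proteoglycan gene, 0.14. Of the 56 ribosomal protein genes with an annotated start, 13 met this rule, although their mRNAs are counted among the TOP mRNAs. Where the annotated start lies off the true cap, the rule can miss a TOP mRNA. Ribosomal protein genes with and without the annotated TOP-like start had median log2 changes of -0.83 and -0.99. These medians therefore cannot tell mRNAs with a tract from those without. With the run allowed to begin within 5 bases of the annotated start, 18.4% of all starts and 1930 tested genes matched, of which 29 were called lower, 23 of them ribosomal protein genes. The sequences describe these windows only, and a match is no evidence that the tract acts in the brain.

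The elongation factors deliver aminoacyl-tRNA to the ribosome and move it along the mRNA. Of 13 genes tested for elongation and termination, 4 were called lower (30.8%, against 0.963% of all genes) and none higher, and the median log2 change was -0.22. Eef1a1, which encodes eEF1A1, the carrier of aminoacyl-tRNA, had 1513 and 1381 CPM in the vehicle mice and 506 and 469 in the treated mice. It fell by 66.3% (log2 change -1.57 ± 0.07 SE, edgeR adjusted p = 5.8e-06), the largest loss in CPM of any called gene. Its paralog Eef1a2, the form of mature neurons and muscle, stood at 2046, 2098, 1963 and 1974 CPM in mice A, B, C and D (log2 change -0.07 ± 0.05, edgeR adjusted p = 0.54). The treated mice lay below the vehicle mice in both paralogs, by a far smaller margin in Eef1a2. Eef2, the translocase that moves the ribosome by a codon, fell from 1095 and 1104 to 508 and 538 (log2 change -1.07 ± 0.06, edgeR adjusted p = 2.7e-05). The subunits of the exchange factor that recharges eEF1A also fell, Eef1g by 0.99 ± 0.08 and Eef1b2 by 0.62 ± 0.08 on the log2 scale, the latter not without mouse A. Eef1d, another subunit, had a log2 change of -0.38 ± 0.10 (edgeR adjusted p = 0.16). Eif5a, which helps ribosomes through difficult peptide bonds, had -0.06 ± 0.07, and Eefsec, the selenocysteine factor, 0.29 ± 0.15. The list took 0.584%, 0.579%, 0.393% and 0.399% of footprints in mice A, B, C and D.

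Initiation factors were affected unevenly. The members called lower were a minority, although 12 of 12 eIF3, 10 of 14 eIF4 and 12 of 19 further initiation factor genes had changes below 0. Of all 10695 tested genes, 5301 had a change below 0. In eIF3, the scaffold that brings the small subunit to the mRNA, 3 of 12 tested subunits were called lower (25%, against 0.963% of all genes). All 12 changes were below 0 (median -0.25). Eif3f stood apart, with 125 and 117 CPM in mice A and B and 50.1 and 52.5 in mice C and D (log2 change -1.24 ± 0.09 SE, edgeR adjusted p = 9.6e-05). Eif3m (-0.55 ± 0.08) and Eif3h (-0.49 ± 0.08) fell less, and Eif3e had -0.52 ± 0.11 (edgeR adjusted p = 0.054). Eif3c, the subunit with the most footprints, stood at 454, 452, 438 and 441 (log2 change -0.04 ± 0.07), and Eif3b at 99.3, 92.2, 96.8 and 94.6 (-0.01 ± 0.09). Eif3m and Eif3h were not called without mouse A or without mouse B.

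In the eIF4 group, which binds the cap and unwinds the leader, 2 of 14 genes were called lower (14.3%, against 0.963% of all genes). The median log2 change was -0.06. Eif4a2, a paralog of the helicase, had 1078 and 1059 CPM in the vehicle mice and 645 and 557 in the treated mice (log2 change -0.83 ± 0.08, edgeR adjusted p = 0.00021). The other major form, Eif4a1, stood at 518 and 510 against 509 and 469 (log2 change -0.07 ± 0.07, edgeR adjusted p = 0.70). Eif4b, a cofactor of the helicase, fell by 0.51 ± 0.08 on the log2 scale, but was not called without mouse A or mouse B. The cap-binding protein Eif4e had -0.10 ± 0.08, the scaffold Eif4g1 -0.02 ± 0.07, and Larp1, which binds TOP mRNAs, -0.05 ± 0.10. Among 19 genes of the eIF1, eIF2, eIF2B, eIF5 and eIF6 group, edgeR and DESeq2 called none and limma-voom called 1 lower, with 7 lower at an unadjusted p under 0.05 (median -0.16). Eif2s2, a subunit of the initiator tRNA carrier, had the smallest adjusted p (log2 change -0.41 ± 0.08, edgeR adjusted p = 0.051). The lowest and highest values were those of Eif2s3y (-0.69 ± 0.25) and Eif2b2 (0.22 ± 0.12), and Eif1 took the most footprints (-0.28 ± 0.09). For this group the median log2 ratio to the vehicle mean was -0.10 in mouse C and -0.25 in mouse D.

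**Figure D3:**
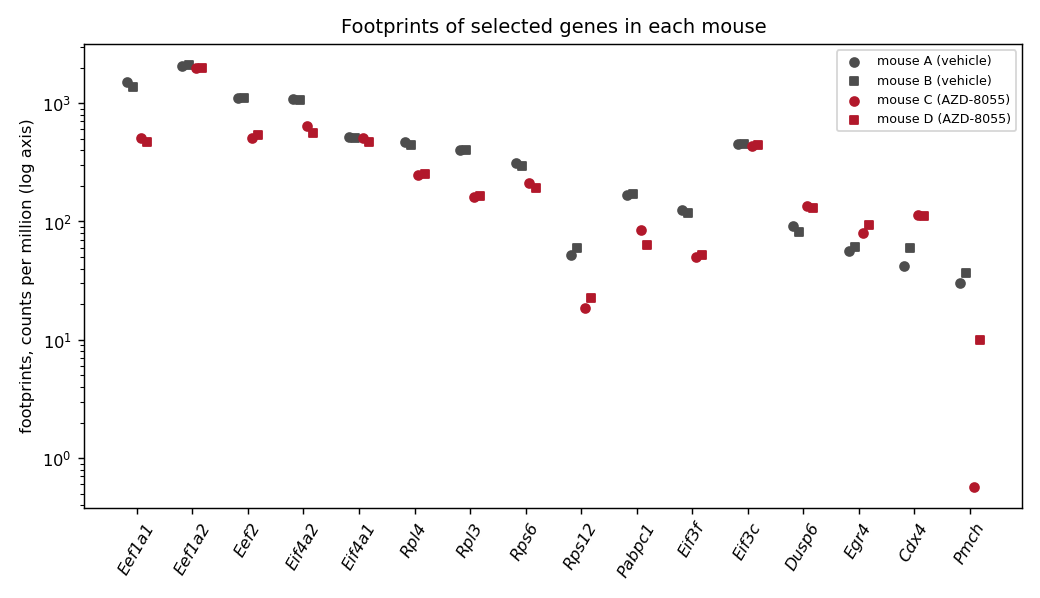
Footprints of selected genes in CPM on a log axis, with 1 point per mouse (grey for vehicle mice A and B, red for treated mice C and D). Eef1a1, Eef2 and Eif4a2 are lower in both treated mice while the 4 mice lie close together for Eef1a2, Eif4a1 and Eif3c, and for Pmch mouse C lies below mouse D.

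Of 18 other mRNAs known to begin with a TOP tract, edgeR called 6 lower (33.3%, against 0.963% of all genes), DESeq2 9 and limma-voom 8. The median log2 change was -0.39, and the 6 genes called by edgeR follow. Pabpc1, the main cytoplasmic poly(A)-binding protein, stood at 168 and 171 CPM in mice A and B and at 84.8 and 63.6 in mice C and D (log2 change -1.20 ± 0.11 SE, edgeR adjusted p = 0.00028). Vim, an intermediate filament of glia and vessels, fell by 0.69 ± 0.12 on the log2 scale, Hnrnpa1, a splicing factor, by 0.67 ± 0.11, and Npm1, the nucleolar chaperone nucleophosmin, by 0.57 ± 0.08. Tpt1, the translationally controlled tumor protein, had 465 and 420 CPM against 311 and 294 (log2 change -0.55 ± 0.08), and Naca, which shields nascent chains, fell by 0.39 ± 0.08. In all 6 genes the treated mice lay below the vehicle mice. Ppp2r1a, a phosphatase scaffold in the same list and its member with the most footprints, had 1125 and 1117 against 1168 and 1146 (log2 change 0.04 ± 0.06). Vim, Hnrnpa1, Npm1 and Naca were not called without mouse A or without mouse B, and Tpt1 was not called without mouse A.

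Of 34 tested genes for ribosome biogenesis and the nucleolus, 2 were called lower, namely Npm1 and Nob1 (5.88%, against 0.963% of all genes). The median log2 change was -0.08, and both treated mice lay below both vehicle mice for 15 of the 34, against 22.2% of all genes. Nob1, the nuclease that finishes small subunit rRNA, had 86.6 and 96.4 CPM in the vehicle mice and 48.1 and 56.9 in the treated mice (log2 change -0.78 ± 0.11 SE, edgeR adjusted p = 0.0049), and was not called without mouse B. Ncl, nucleolin, took the most footprints (log2 change -0.23 ± 0.07, edgeR adjusted p = 0.24) and Rrp12 had the highest change (0.22 ± 0.10). Npm1 was not called without mouse A or without mouse B.

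Chaperones that fold newly made proteins had lower values, mostly by less than 1.5-fold. All 13 tested genes of the CCT chaperonin and prefoldin had changes below 0 (median -0.30). Of these, 2 were called by edgeR (15.4%, against 0.963% of all genes) and 4 each by DESeq2 and limma-voom. Pfdn5, a prefoldin subunit that hands nascent actin and tubulin to CCT, fell from 135 and 123 to 77.3 and 80.4 CPM (log2 change -0.71 ± 0.09 SE, edgeR adjusted p = 0.0019). Cct4 fell by 0.50 ± 0.08 on the log2 scale, and Cct3 had -0.05 ± 0.07. Pfdn5 was not called without mouse A, and Cct4 was not called without mouse A or without mouse B.

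Of 20 heat shock proteins and chaperones, 19 had changes below 0 (median -0.20). Hspa5 alone was called by edgeR (5% of the list, against 0.963% of all genes), and DESeq2 called 2 genes. The share of footprints of the heat shock list was 1.87% and 1.83% in mice A and B and 1.68% and 1.54% in mice C and D. Hspa5, or BiP, the main Hsp70 of the endoplasmic reticulum (ER), stood at 962 and 933 CPM against 761 and 657 (log2 change -0.42 ± 0.08 SE, edgeR adjusted p = 0.026). A list of 20 genes of ER folding and import was drawn up after Hspa5, Canx, Pdia4 and Sec63 had been seen among the called genes, so their 4 calls are no independent evidence. Canx, the lectin chaperone calnexin, had 959 and 950 against 781 and 769 (-0.30 ± 0.06), Pdia4, a disulfide isomerase, -0.40 ± 0.08, and Sec63, a translocon subunit, -0.49 ± 0.09. In 19 of the 20 genes the change was below 0 (median -0.23), and Edem1, which sends misfolded glycoproteins to degradation, lay above it (0.11 ± 0.23). None of the heat shock or ER genes was called without mouse A or without mouse B. The median log2 ratio to the vehicle mean was -0.14 in mouse C and -0.25 in mouse D for the heat shock list. For the ER list it was -0.26 and -0.32.

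Of the other genes called lower, Sod1, the cytosolic superoxide dismutase, had 435 and 409 CPM in the vehicle mice and 329 and 288 in the treated mice (log2 change -0.46 ± 0.08). Rabggtb, a Rab prenylation subunit, fell by 0.64 ± 0.13 on the log2 scale, Arid4b, a chromatin protein, by 0.50 ± 0.09, Fxr1, an RNA-binding relative of the fragile X protein, by 0.44 ± 0.08, Cops2, a COP9 signalosome subunit, by 0.42 ± 0.08, and Dnajb4, an Hsp40 cochaperone, by 0.41 ± 0.08. The groups did not overlap in these genes, but none was called without mouse A or without mouse B.

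**Figure D4:**
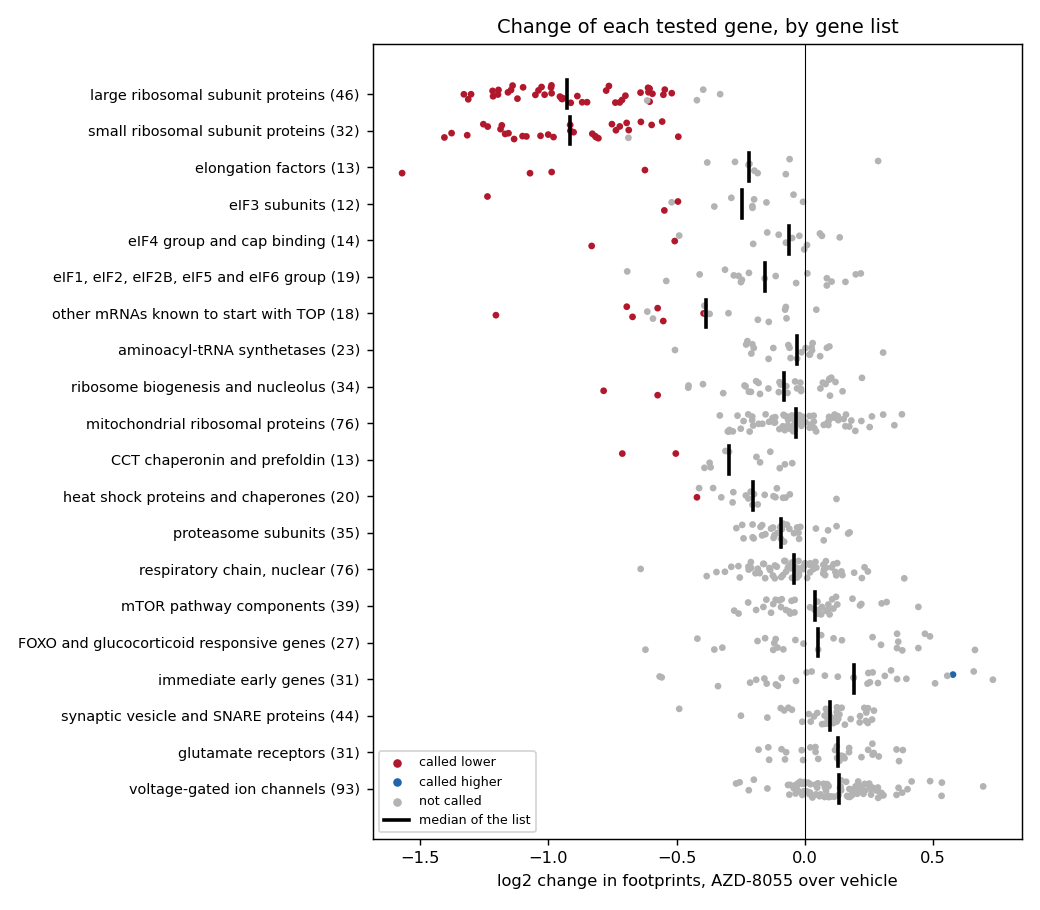
Log2 change in footprints (AZD-8055 over vehicle) of each tested gene in 20 gene lists, with the number of tested genes in parentheses, called genes in colour and a bar at the median of each list. The ribosomal protein lists sit around -0.9 while the mitochondrial ribosomal proteins, tRNA synthetases and proteasome subunits have medians of -0.03, -0.03 and -0.09 and no called gene.

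Other large protein assemblies gave no call by edgeR. The 76 tested mitochondrial ribosomal proteins had a median log2 change of -0.03 and no call by edgeR, DESeq2 or limma-voom, with 3 lower and 1 higher at an unadjusted p under 0.05. Their share of footprints was 0.295% and 0.316% in the vehicle mice and 0.291% and 0.307% in the treated mice, so the groups overlapped. The extremes were Mrpl47 (-0.33 ± 0.18 SE) and Mrps28 (0.38 ± 0.15). The 23 aminoacyl-tRNA synthetase genes, which charge tRNA, had a median of -0.03 and no call by the 3 tools (1 lower and 1 higher unadjusted). Nars took the most footprints (-0.06 ± 0.07), and Aimp1, a scaffold of the synthetase complex, was lowest (-0.51 ± 0.12, edgeR adjusted p = 0.11). The 35 proteasome subunits had a median of -0.09, no call by the 3 tools and 6 lower unadjusted. Of the 35, 29 had a change below 0 and 20 had both treated mice below both vehicle mice (22.2% of all tested genes did so), and their shares of footprints did not overlap (0.609% and 0.590% against 0.570% and 0.561%). The 76 nuclear genes of the respiratory chain had a median of -0.04, no call by edgeR, 2 lower by DESeq2 and 1 by limma-voom (14 lower and 4 higher unadjusted), and their shares did not overlap either (1.98% and 1.97% against 1.91% in both treated mice). Cox7a2l, a factor for respiratory supercomplexes, was lowest (-0.64 ± 0.15, edgeR adjusted p = 0.097), and Atp5a1 took the most footprints (-0.04 ± 0.05).

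Metabolic and stress programmes that mTOR is known to influence over longer times also gave no call by any of the 3 tools. The medians were -0.01 for 23 genes with upstream reading frames or under the stress factor ATF4 (2 lower and 0 higher unadjusted), 0.06 for 26 SREBP genes of sterol and fatty acid synthesis (2 and 2), 0.01 for 35 genes of autophagy and the lysosome (3 and 4), -0.01 for 26 genes of nucleotide and polyamine synthesis (2 and 1), 0.05 for 17 glycolytic genes (0 and 3) and 0.16 for 9 histones (0 and 3). Asns, the ATF4 target asparagine synthetase, stood at 244, 255, 241 and 233 CPM in mice A, B, C and D, so the treated mice were barely below the vehicle mice. Psap, the lysosomal prosaposin, stood at 3322 and 3293 against 3637 and 3516 (log2 change 0.11 ± 0.04 SE, edgeR adjusted p = 0.33). Aldoa, the glycolytic aldolase, stood at 2414 and 2234 against 2495 and 2373 (0.07 ± 0.05), and the groups overlapped.

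The genes with more footprints after AZD-8055 were few. Cdx4, a homeobox gene known from the posterior embryo, stood at 42.2 and 59.6 CPM in the vehicle mice and at 113 and 112 in the treated mice (log2 change 1.18 ± 0.14 SE, edgeR adjusted p = 0.0013). It was the sole called gene to rise by more than 2-fold. Whether the footprints counted for Cdx4 came from its own mRNA in this adult tissue was not tested. Dusp6, the phosphatase that switches off ERK and is itself induced by ERK, stood at 91.7 and 80.8 against 134 and 130 (log2 change 0.61 ± 0.09, edgeR adjusted p = 0.0055), and was not called without mouse B. Egr4, an activity-induced transcription factor, stood at 55.9 and 61.1 against 79.9 and 93.2 (0.58 ± 0.11). Ss18l1, a neuronal chromatin remodelling subunit also called CREST, stood at 64.6 and 59.8 against 82.8 and 101 (0.56 ± 0.11). Haghl, a relative of the glyoxalase genes, stood at 69.8 and 72.3 against 93.4 and 109 (0.52 ± 0.10). Both treated mice lay above both vehicle mice in all 5 genes, but Egr4, Ss18l1 and Haghl were not called without mouse A or mouse B. Ss18l1 was also not called without mouse D (log2 change 0.40). Nor was it called when the scaling between libraries left out ribosomal protein and translation factor genes.

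Immediate early genes, which neurons transcribe within minutes of activity, had a median log2 change of 0.19 over 31 tested genes. Egr4 alone was called, against 11 higher and 2 lower at an unadjusted p under 0.05. Both treated mice lay above both vehicle mice for 14 of the 31 genes, against 21.8% of all tested genes. Egr2 (0.66 ± 0.17 SE), Dusp1 (0.56 ± 0.12, edgeR adjusted p = 0.068), Fos (0.26 ± 0.09) and Egr1 (0.24 ± 0.10), the member with the most footprints, lay above 0, whereas Npas4 (-0.57 ± 0.19), Arc (-0.15 ± 0.11) and Bdnf (-0.19 ± 0.13) lay below. The highest value was that of Cyr61 (0.73 ± 0.23, edgeR adjusted p = 0.23). No member was called without mouse A or without mouse B. The median log2 ratio of the list to the vehicle mean was 0.15 in mouse C and 0.11 in mouse D. Among 12 genes of ERK feedback, Dusp6 alone was called (median 0.03). Spry2, an inhibitor of receptor tyrosine kinase signalling, had 0.45 ± 0.11 (edgeR adjusted p = 0.13) and Spry4 -0.60 ± 0.24.

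The kinase and its pathway gave no call by edgeR. None of 39 tested mTOR pathway genes was called by edgeR or limma-voom and 1 was higher by DESeq2, with 2 lower and 2 higher at an unadjusted p under 0.05 (median 0.04). Mtor had a log2 change of 0.13 ± 0.08 SE, Rptor, the raptor subunit of complex 1, 0.22 ± 0.09, and Rictor, of complex 2, -0.06 ± 0.10. Rps6kb1, an S6 kinase, had a log2 change of -0.06 ± 0.14. The highest value was that of Irs2, an insulin receptor substrate, with 113 and 119 against 171 and 144 (0.44 ± 0.09, edgeR adjusted p = 0.067), and the groups did not overlap. Of 27 genes that respond to FOXO factors or glucocorticoids, edgeR called none, DESeq2 and limma-voom called 1 higher each, and 8 were higher and 2 lower unadjusted (median 0.05). Pik3ip1, an inhibitor of PI3 kinase, had 23.5 and 24.8 against 36.4 and 39.6 (0.66 ± 0.13, edgeR adjusted p = 0.053), and Txnip, a regulator of glucose uptake, 0.49 ± 0.12 (edgeR adjusted p = 0.12). Fkbp5, a glucocorticoid-induced chaperone, had 55.8 and 47.5 against 33.8 and 34.0 (-0.62 ± 0.13, edgeR adjusted p = 0.054). None of the 16 Notch pathway genes was called by the 3 tools (median 0.07, 1 lower and 1 higher unadjusted), and Lfng, which modifies Notch receptors, was lowest (-0.86 ± 0.18, edgeR adjusted p = 0.067).

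Proteins of the synapse took a slightly larger share of footprints in the treated mice, though no single gene passed the test in edgeR. Synaptic vesicle and SNARE genes took 2.31% and 2.27% of footprints in mice A and B and 2.50% and 2.43% in mice C and D (44 genes tested, median log2 change 0.10, 27 with both treated mice above both vehicle mice, against 21.8% of all tested genes). Postsynaptic scaffolds and CaM kinases took 0.914% and 0.906% against 0.997% and 1.01% (31 genes, median 0.14, 12 above). Voltage-gated ion channels took 0.716% and 0.720% against 0.780% and 0.787% (93 genes, median 0.13, 45 above). In each list the shares of the treated mice lay above those of the vehicle mice, by a ratio of 1.08, 1.10 and 1.09. At an unadjusted p under 0.05, 7 of the vesicle genes, 11 of the scaffold genes and 21 of the channel genes were higher and 1, 0 and 0 were lower. Of all 10695 tested genes, 654 were higher and 717 lower at this threshold. DESeq2 called 1 vesicle gene and no scaffold or channel gene, and limma-voom none. Part of the larger share follows from the fall of the ribosomal proteins, since shares sum to the whole, and over the footprints of all other genes the ratios were 1.07, 1.09 and 1.08.

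Syp, the vesicle protein synaptophysin, had 1285 and 1328 CPM against 1544 and 1539 (log2 change 0.24 ± 0.05 SE, edgeR adjusted p = 0.082). Camk2a, the gene whose promoter drove Cre, had 2290 and 2187 against 2497 and 2529 (0.17 ± 0.05, edgeR adjusted p = 0.19). Ddn, the postsynaptic protein dendrin, had 87.2 and 96.2 against 116 and 130 (0.44 ± 0.09, edgeR adjusted p = 0.067). The groups did not overlap in these 3 genes. Glutamate receptors behaved similarly (31 genes, median 0.13, 7 higher unadjusted, no call by the 3 tools), while GABA-A receptor subunits did not lie above 0 (13 genes, median -0.05, none at an unadjusted p under 0.05 and no call by the 3 tools). Neuropeptides and granins (25 genes, median 0.02, 1 higher by DESeq2, 3 higher and 1 lower unadjusted) and tubulins with their binding proteins (28 genes, median 0.04, 4 and 4 unadjusted) had no call by edgeR.

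**Figure D5:**
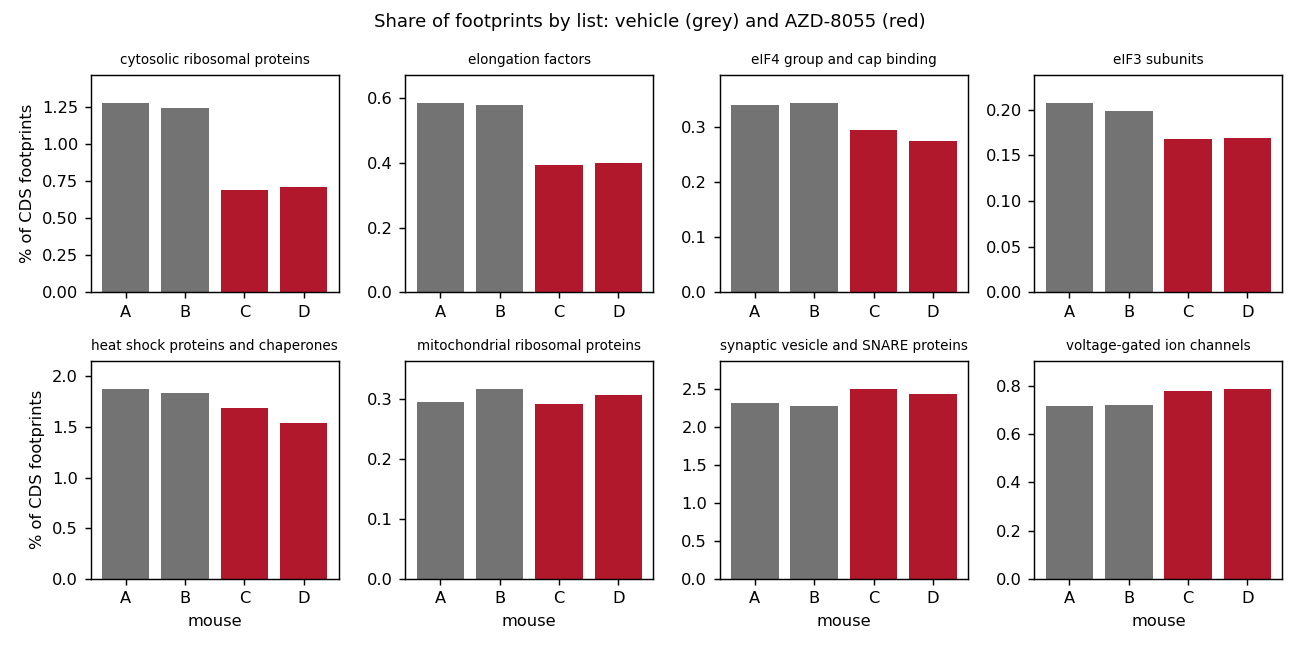
Share of all CDS footprints taken by 8 gene lists in each mouse, in percent, with axes that start at 0 (grey for vehicle mice A and B, red for treated mice C and D). The share of the cytosolic ribosomal proteins goes from 1.28% and 1.24% to 0.690% and 0.708%, while the mitochondrial ribosomal proteins overlap between groups and the synaptic vesicle genes stand slightly higher in the treated mice.

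In CPM, the largest losses of called genes belonged to a few genes with many footprints. Eef1a1 lost 960 CPM, Eef2 lost 577 and Eif4a2 lost 467, followed by Hspa5 (239), Rpl3 (238), Rpl4 (206), Canx (179), Tpt1 (140), Rpl6 (138) and Rpl5 (130). Hspa8, the constitutive cytosolic Hsp70, had a larger difference still (-1024 CPM), but was not called by edgeR (log2 change -0.28 ± 0.07, edgeR adjusted p = 0.11). It was called lower by DESeq2, with no filter on low counts, and without mouse C or mouse D. Over all 158 tested genes of the translation machinery and TOP lists, the share of footprints was 3.13% and 3.08% in mice A and B and 2.17% and 2.14% in mice C and D. The gains of the 5 called genes were small beside these losses, among them 30.04 CPM for Haghl, 29.6 for Ss18l1 and 61.5 for Cdx4.

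The largest fitted fall among called genes was that of Pmch, which encodes melanin-concentrating hormone in neurons of the lateral hypothalamus. It had 278 and 167 footprints in mice A and B, and 2 and 48 in mice C and D (log2 change -2.48 ± 0.47 SE, edgeR adjusted p = 0.036). Mouse C was also the lowest in Avp and Oxt, as given above, and in Trh, the thyrotropin-releasing hormone gene (18.1, 19.7, 10.3 and 17.1 CPM). It was not low in Crh, the gene of corticotropin-releasing hormone (9.90, 9.20, 10.3 and 10.8 CPM), and it was little below the others in Cartpt (25.4, 25.4, 20.3 and 27.1 CPM). Without mouse C the log2 change of Pmch was -1.72, without mouse D it was -5.80, and without mouse A or mouse B it was not called. DESeq2 gave it no adjusted p. The part of the dissection in this fall was not tested. The 16 hypothalamic genes were listed after Pmch had been seen, and 9 of them passed the filter. In Avp and Oxt mouse D (59.0 and 33.8 CPM) lay near the vehicle mice (61.9 and 78.6, 27.5 and 33.7), and neither was called.

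Markers of cell types gave no call by edgeR or limma-voom, apart from Pmch. The medians were 0.08 for pan-neuronal genes, 0.11 for excitatory forebrain neurons, 0.14 for interneurons, 0.23 for striatal projection neurons, -0.01 for astrocytes, 0.05 for oligodendrocyte precursors, -0.05 for myelinating oligodendrocytes, -0.04 for microglia and 0.00 for endothelium. At an unadjusted p under 0.05, 6 of 19 pan-neuronal, 4 of 18 excitatory, 1 of 19 interneuron and 7 of 16 striatal markers were higher, and 0, 1, 1 and 0 were lower. The counts lower and higher were 2 and 1 of 19 for astrocytes, 0 and 0 of 12 for precursors, 3 and 1 of 19 for myelin, 1 and 1 of 20 for microglia and 4 and 0 of 18 for endothelium. Over all 10695 tested genes they were 717 and 654. DESeq2 called 1 pan-neuronal and 1 interneuron gene higher. Excitatory markers took 0.555% and 0.553% of footprints in mice A and B and 0.619% and 0.627% in mice C and D, and striatal markers took 0.250% and 0.256% against 0.272% and 0.314%. Both were higher in the treated mice, as were the synaptic lists, and their part in those values was not tested. Camk2a, Nrgn and Slc17a7 stand in the excitatory list and also in the synaptic lists, so the same footprints are counted in both. The pan-neuronal list likewise shares Snap25, Syt1, Syp and Syn1 with the vesicle list. The 4 tested choroid plexus genes had a median of -1.07 with Ttr lowest (-3.08 ± 1.16 SE, edgeR adjusted p = 0.32), with the high value in mouse B given above, and no blood gene reached the filter. The part of these regional differences in the fall of the ribosomal protein genes was not tested.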

How the data were processed

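Ribosome footprint libraries were made by the authors with a ligation-free method (poly(A) tailing, template switching and PCR) from brain lysates of 2 AZD-8055 and 2 vehicle mice. The authors trimmed the reads, removed rRNA reads with Bowtie2, aligned the rest to mm10 with TopHat2 without new junctions and counted reads in coding sequences with HTSeq in strict intersection mode (versions not given in the sources used here). The deposited table holds raw counts per gene symbol, and 0 columns of it could not be mapped to a sample. Genes named by 27 dates instead of symbols held 0.364% of footprints. Exon counts and RNA-Seq columns were not used here. Reads carry no molecular identifiers, so counting error does not cover PCR duplication.

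Genes with a mean of at least 37 footprints per library (10695 of 20504) were scaled by TMM and tested with edgeR 4.0.16 (quasi-likelihood F test, 2-sided, Benjamini-Hochberg adjustment over all tested genes, R 4.3.3) in a model of the 4 footprint libraries with no covariate. Values per mouse are TMM-scaled CPM. A standard error is the log2 change divided by the square root of F. Ratios of single mice used a pseudocount of 0.5 CPM. On simulated counts with 200 changed genes, 36.0% were recovered at a log2 change of 0.5, 90.0% at 1 and 98.5% at 1.5. Of the simulated calls, 7.69%, 1.64% and 5.29% were false. The simulation used the fitted dispersion, with no further spread particular to a gene, and as many rises as falls. Recovery of genes that vary more between mice was therefore not measured. DESeq2 1.42.0, limma-voom (limma 3.58.1), other scalings and filters, and leaving out each mouse were the alternatives. Members and the 45 gene lists were chosen with earlier results of these data known, and the lists for ER folding and the hypothalamus were added after values were seen. Named genes were the 15 largest changes in each direction among called genes without overlap between groups, the 10 largest gains and losses in CPM, and the most abundant, lowest and highest members of lists, with further members named in the passage on their list. Starts came from RefSeq (GRCm38.p6), matched by symbol. A comparison with protein length was not run, since no protein table was used here, and the list of mitochondrial genome genes had no row to analyse here. Some items are not reported here.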

Additional observations from a re-analysis of the deposited data

How the results depend on the processing

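The 103 genes with fewer footprints became 204 with no filter on low counts and 65 to 481 when single mice were left out, and were between 102 and 123 under the other alternatives. The 5 genes with more footprints became 13 with DESeq2, 10 with limma-voom, 12 with total counts, 60 with no filter and 20 with a mean of at least 100 footprints, and 2 to 353 when single mice were left out. The cause was not tested. The 73 ribosomal protein genes called lower were 52 to 78 when single mice were left out, and 73 to 77 otherwise. Their median log2 change was -0.95 with no filter and -0.94 to -0.89 when single mice were left out. The 13 genes with a TOP-like start called lower became 29 with a start within 5 bases and 35 with a run of at least 8 pyrimidines from 20 bases before to 30 bases after the start, the last chosen after seeing the data, as more starts match. Mrpl50, not called (log2 change -0.08 ± 0.33 SE), had 0.30 and a call without mouse C, and ran from -0.65 to 0.54 when single mice were left out. Of the 103 genes, 96 were also called lower by DESeq2, which gave no adjusted p for 3 others, and 102 by limma-voom. No paired analysis was possible because treated and vehicle mice were different animals that share no label. With 2 mice per group and the depths above, changes near 0.5 on the log2 scale were mostly missed in simulated counts. Those counts held no spread particular to a gene, so they do not give the recovery for genes that vary more between mice.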
